A study of Mus musculus with 6 samples.

Results

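Peroxisome proliferator-activated receptors (PPARs), their partner receptors and the proteins that carry their signal were followed in the inflamed colon of mice that lacked Pparg in myeloid cells. The set was given by name as 9 genes: Pparg, Ppara and Ppard, the retinoid X receptors Rxra and Rxrb, the coactivators Ppargc1a, Ppargc1b and Med1, and the corepressor Ncor1. Probe sets were taken when the platform annotation tied them to 1 of these genes only. This gave 23 probe sets for 8 of the 9 genes, out of 45101 on the array, and 17 of them passed the filter (a log2 value over 4 on 3 or more arrays), as did 10490 genes in all. No probe set was named for Ncor1 in the annotation used here, so it was not analysed. Each gene is led by its probe set with the highest mean over the 6 arrays.

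A PPAR binds DNA as a pair with a retinoid X receptor, on a repeat of the hexamer AGGTCA, and is switched by fatty acids and their derivatives. Without ligand the pair can hold corepressors such as NCoR, and with ligand it recruits coactivators, among them the PGC-1 proteins (Ppargc1a, Ppargc1b) and Med1, the Mediator subunit that contacts nuclear receptors. In the gut, PPAR gamma is abundant in colonic epithelium and also acts in macrophages and fat cells, PPAR alpha drives fatty acid oxidation, and PPAR delta is expressed in most cell types.

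All 6 animals were C57BL/6 mice with floxed alleles (PPAR g fl/fl), littermates of 6 to 8 weeks, and all received 2.5% dextran sodium sulfate (DSS), which injures the colonic epithelium and causes colitis, with tissue taken on day 7. The 3 deficient mice were Lysozyme M cre+ and the 3 control mice Lysozyme M cre-. Cre is expressed from the lysozyme M locus, mainly in macrophages and neutrophils. By this design epithelial, fat and muscle cells should keep Pparg, which was not measured here. RNA came from whole colonic tissue, 1 mouse per Affymetrix mouse expression array, and no group was left without DSS, so its own effect cannot be read from these samples. In such bulk tissue, fewer cells of a type and less RNA per cell cannot be told apart, nor can loss of PPAR gamma and the presence of Cre.

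Not all arrays had the profile of colon. On control replicate 1 and deficient replicate 3 the mean of 12 small intestine enterocyte markers was 11.96 and 10.54, against 4.83 to 6.60 on the other arrays, while 9 colonocyte markers averaged 5.20 and 6.46 there, against 8.39 to 9.60. Results are therefore also given on the 4 arrays with a colon profile and as the difference between the 2 arrays with a small intestine profile. Among the 4 colon-profile arrays, colonocyte markers also differed by genotype, in both directions but mostly higher in deficient samples. Hoxd10 read 6.59 and 6.51 in control and 3.91 and 2.29 in deficient samples. Car1 read 15.32 and 15.19 against 14.38 and 13.60, Hoxb13 2.26 and 2.25 against 3.76 and 7.30, and Aqp4 9.27 and 10.18 against 12.29 and 12.79. Car4, Aqp8, Slc26a3, Hoxa10 and Hoxa11, the other markers of this list, were all higher on both deficient arrays. Over all 6 arrays 8 of the 9 colonocyte markers had a higher mean in deficient samples. The part that place along the colon may have in the 4-array differences was not tested. The mean of 9 general epithelial markers was level on all arrays, at 13.36 to 13.89 in control and 13.40 to 13.59 in deficient samples. Single markers were not all level. Vil1 ran from 10.95 to 13.49 and Krt20 from 12.70 to 14.27, both highest on the 2 arrays with a small intestine profile. Epcam stayed between 14.33 and 14.68. Markers of some other cells moved with genotype. Smooth muscle, hepatocyte and pancreas marker means overlapped between the groups, with smooth muscle at 11.06 to 12.21 in control and 11.36 to 12.10 in deficient samples. The 5 lymphocyte markers above log2 4 on any array were lower on average in deficient samples. All 5 were highest on control replicate 1, which had a small intestine profile. Cd3e, Cd3g and Cd8a read 4.54, 6.31 and 5.22 there, against 2.43 to 2.54, 3.95 to 4.51 and 3.80 to 4.64 on the other arrays. Means over all 8 lymphocyte markers were 3.57 to 4.18 in deficient samples against 4.17 to 5.23 in control, which just overlap. The 5 adipocyte markers above log2 4 on any array were all lower on average in deficient samples, and leptin (Lep) was at the array floor throughout, with means over these 6 of 5.84 to 6.98 against 7.37 to 8.62. Macrophage and monocyte markers were higher for 15 of 18 genes, at 7.96 to 8.76 against 7.43 to 7.85, and so were the 6 neutrophil markers above log2 4 on any array, with means over all 9 of 4.54 to 6.82 against 3.45 to 4.47. The 18 macrophage and monocyte markers include Lyz2, the locus at which Cre is inserted, which read lower in all deficient samples. The neutrophil markers Cxcr2, Mpo and Elane were near the floor, at 2.52 or lower, on all arrays. Control replicate 2 alone carried Xist, which females express from their silenced X chromosome, at 12.11 against 2.25.

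**Figure D1:**
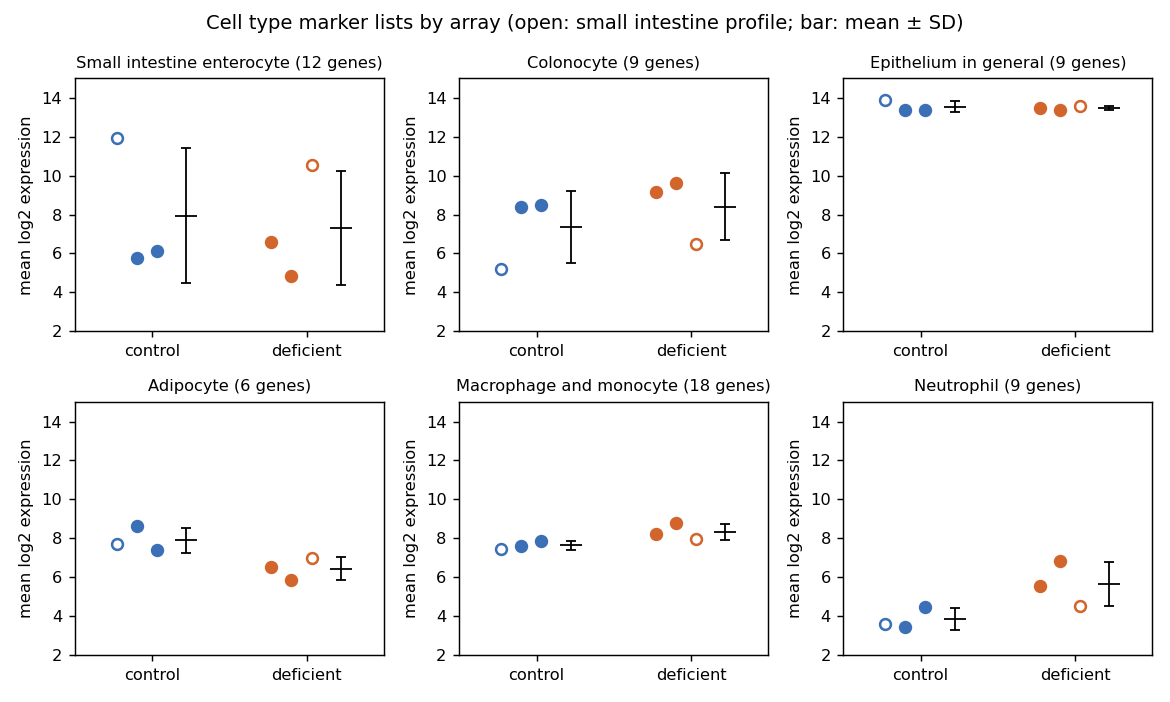
Mean log2 expression of 6 marker lists on each array, control (blue) and deficient (orange), with the mean ± SD of each group (n = 3) beside the points and open points for the 2 arrays with a small intestine profile. The adipocyte means lie between 5.84 and 6.98 in deficient and between 7.37 and 8.62 in control samples, and the general epithelial means stay between 13.36 and 13.89 on all arrays.

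Among the 8 measured members, Ppara and Ppargc1a were the genes whose genotype groups separated, and both were lower in all deficient samples than in any control sample. Pparg was lower within each tissue profile but overlapped over all 6 arrays. Ppard, Rxra, Rxrb and Med1 had overlapping groups. They spanned 0.92, 0.74, 0.53 and 0.89 log2 units over the 6 arrays, wider than 46.3%, 33.8%, 17.5% and 44.3% of genes. Ppargc1b was lower on average with overlapping groups. By limma, no member had an adjusted p under 0.05, nor had any of the 10490 genes (0%), while 783 genes (7.46%) had an unadjusted p under 0.05. Groups separated downward for 2 of the 8 members, against 4.15% of all genes, and 2 of 8 had a limma unadjusted p under 0.05 with a lower level, against 2.36%. With 3 arrays against 3, an exact two-sided permutation test of a single value cannot go below 0.1.

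The sequences before the transcription starts of Ppara and Ppargc1a are shown because these members were low together. They are the 250 bases upstream of the start as RefSeq places it on GRCm38.p6, read 5′ to 3′ on the gene's strand. Capitals mark matches on either strand to 1 of 6 motifs, which are the receptor half-site AGGTCA, its direct repeat AGGTCANAGGTCA (which contains the half-site), the cyclic AMP response element TGACGTCA, the E-box CACGTG, the TATA motif TATAAA and the GC box GGGCGG. The Ppara stretch is chr15:85735526-85735775 (+ strand) and the Ppargc1a stretch chr5:51567726-51567975 (- strand).
Ppara: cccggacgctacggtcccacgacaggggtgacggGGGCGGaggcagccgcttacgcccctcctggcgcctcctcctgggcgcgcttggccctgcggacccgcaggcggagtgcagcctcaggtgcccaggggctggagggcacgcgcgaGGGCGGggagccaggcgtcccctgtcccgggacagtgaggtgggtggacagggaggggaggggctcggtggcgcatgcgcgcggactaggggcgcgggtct
Ppargc1a: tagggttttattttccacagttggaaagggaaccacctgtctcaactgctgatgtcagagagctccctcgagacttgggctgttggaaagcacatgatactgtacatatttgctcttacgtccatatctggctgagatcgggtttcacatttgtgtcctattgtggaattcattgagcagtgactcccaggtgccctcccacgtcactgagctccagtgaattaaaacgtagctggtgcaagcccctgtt
The 2 stretches differ in make-up. That of Ppara was 76.4% G or C with 27 CpG steps and held the GC box at 2 places, the first of them 216 bases before the start. That of Ppargc1a was 48.0% G or C with 5 CpG steps and held none of the 6 motifs in these letters, which says nothing about the factors themselves. Over all 32851 RefSeq promoters of this length the median was 52.4% G or C. The GC box occurred in 32.7% of them, the half-site in 14.0%, its direct repeat in 0.0335%, the TATA motif in 12.4%, the E-box in 6.02% and the cyclic AMP response element in 1.55%. A match describes the letters and is no evidence of binding. Of the other members, both Pparg starts that lie in GC-rich sequence (82.4% and 63.6% G or C) had 1 half-site, 28 and 9 bases before the start. These also held the GC box, at 1 and 2 places, and the second of them the TATA motif. The third Pparg start (40.8% G or C) had none of the motifs. The second Rxra start held 2 half-sites, the first of them 87 bases before the start. The GC box also occurred before the Ppard and Med1 starts, the first Rxra start, both Rxrb starts and the second Ncor1 start.

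**Figure D2:**
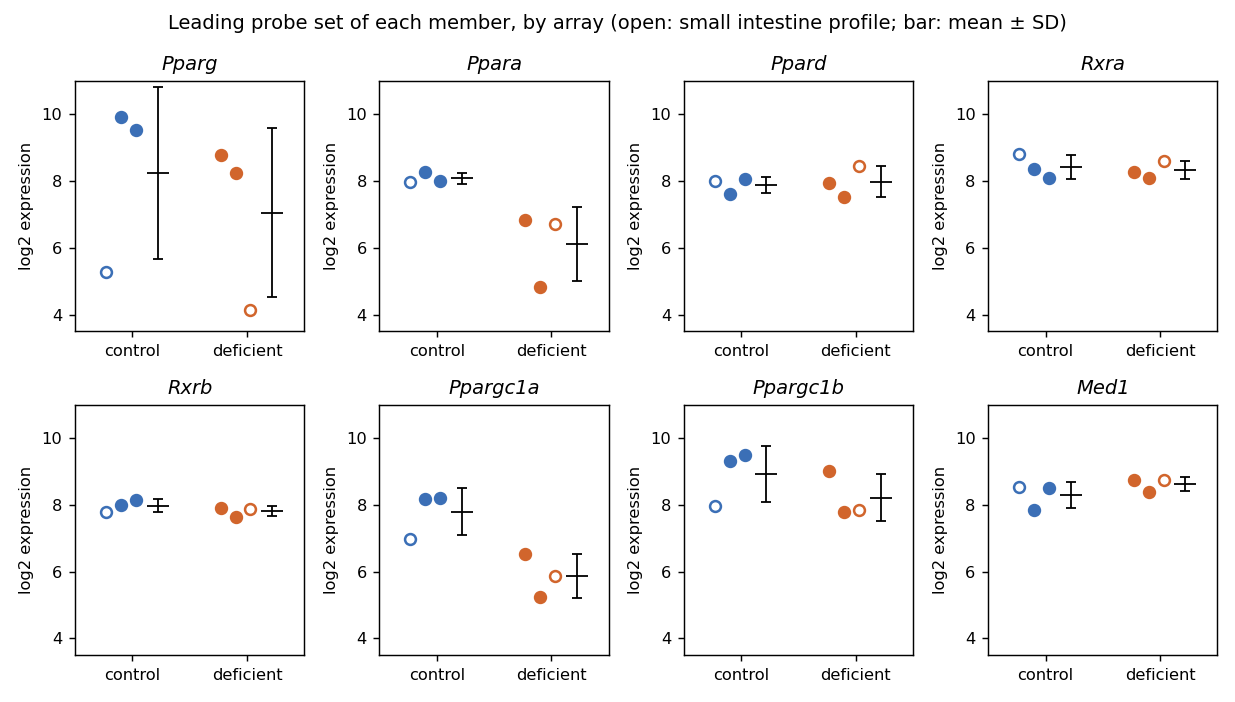
Log2 expression of the leading probe set of 8 members on each array, control (blue) and deficient (orange), with the mean ± SD of each group (n = 3) beside the points and open points for the 2 arrays with a small intestine profile. For Ppara and Ppargc1a all deficient points lie below all control points, while the open Pparg points, at 5.28 and 4.15, lie far below the filled ones.

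Pparg, the deleted gene, encodes the receptor of fat storage genes that also restrains inflammatory genes in macrophages. Its single probe set (1420715_a_at) read 5.28, 9.91 and 9.54 in the control samples and 8.77, 8.23 and 4.15 in the deficient samples. The lowest control and the lowest deficient value came from the 2 arrays with a small intestine profile, and the groups overlapped. The means were 8.24 ± 2.57 (SD, n = 3) in control and 7.05 ± 2.53 (n = 3) in deficient samples, a log2 difference of -1.19 with a 95% interval of -5.45 to 3.06 and a limma adjusted p of 0.881. The 6 arrays spanned 5.76 log2 units, a wider range than that of 98.9% of genes. Within the profiles the differences were alike, at -1.22 on the 4 colon-profile arrays (limma unadjusted p 0.0116, adjusted 0.285) and -1.13 between the other 2 arrays. With the profile as a block in the fit of all 6 arrays, the difference of -1.19 had a limma unadjusted p of 0.00198 and an adjusted p of 0.273. Leaving out deficient replicate 3 turned the difference to 0.26, and leaving out control replicate 1 gave -2.67. The probes' place relative to the floxed exons is not given in the sources used here. Bulk tissue also does not show how much Pparg came from cells without Cre, so the deletion cannot be checked on these values. Lyz2, the locus at which Cre is inserted, read 12.32, 11.79 and 12.19 in control and 6.80, 6.24 and 10.39 in deficient samples, which separates the groups as the labels do.

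Ppara encodes the receptor that switches on peroxisomal and mitochondrial fatty acid oxidation. Its leading probe set (1449051_at) read 7.97, 8.27 and 8.0 in control and 6.82, 4.82 and 6.70 in deficient samples. Control samples lay within 0.30 of each other, including the one with a small intestine profile, while deficient replicate 2 stood far below the other deficient samples. The means were 8.08 ± 0.17 and 6.12 ± 1.12 (SD, n = 3 each), a log2 difference of -1.96 with a 95% interval of -3.34 to -0.59, or a level 3.90-fold higher in control with an interval of 1.5 to 10.1. The limma unadjusted p was 0.0131 and the adjusted p 0.659. On the 4 colon-profile arrays Ppara differed by -2.31, and between the 2 small intestine-profile arrays by -1.27. Without deficient replicate 2 the difference was -1.32, and without control replicate 2, the only sample with Xist, it was -1.87.

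Both other Ppara probe sets separated the groups as well. The probe set 1439675_at read 6.46, 6.04 and 7.66 in control and 5.09, 2.86 and 5.24 in deficient samples, a difference of -2.32. The probe set 1457721_at read 5.69, 5.49 and 5.72 in control and 4.49, 4.13 and 4.93 in deficient samples, a difference of -1.12 with the narrowest 95% interval of the 3, -1.71 to -0.53. Deficient replicate 2 was lowest on each. Of 1528 genes with at least 3 kept probe sets, 6 (0.393%) had every one of them separated downward, and Ppara was among these. Probe sets of 1 gene read the same RNA samples and are not replicates of the genotype.

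**Figure D3:**
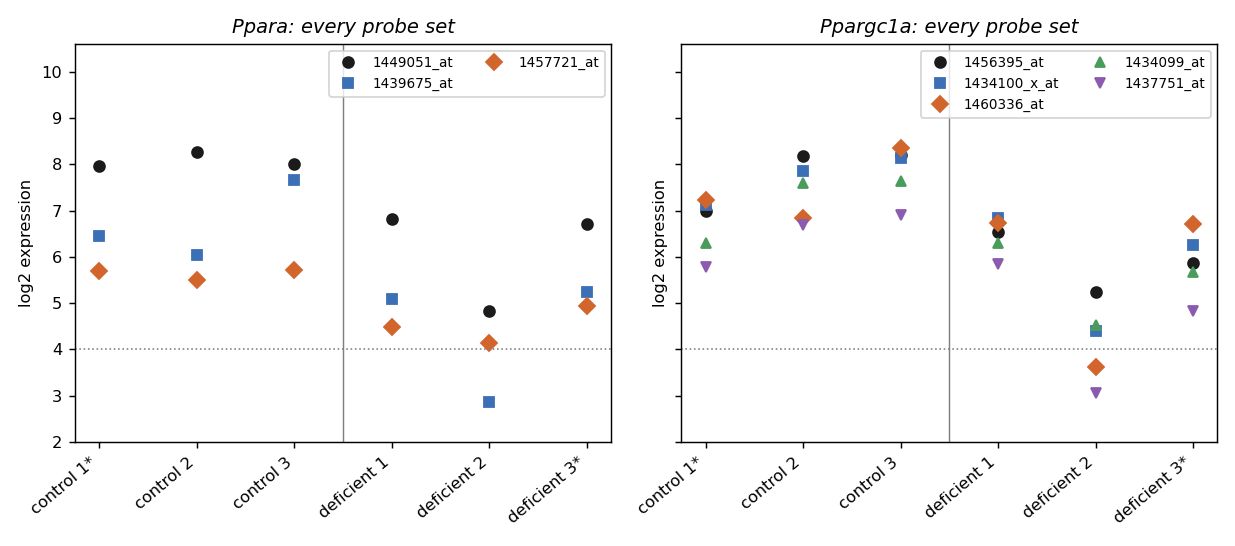
Log2 expression of the 3 Ppara and 5 Ppargc1a probe sets (1 marker each) on every array, controls left and deficient samples right of the grey line. An asterisk marks the 2 arrays with a small intestine profile and the dotted line the filter at log2 4. Deficient replicate 2 is lowest on all 8 probe sets, down to 2.86 for Ppara and 3.05 for Ppargc1a.

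Ppard, whose product is the broadly expressed receptor of the family, showed no such separation. Its leading probe set (1439797_at) read 7.99, 7.61 and 8.07 in control and 7.95, 7.54 and 8.46 in deficient samples. The groups overlapped throughout, with a difference of 0.09, a 95% interval of -0.61 to 0.79 and a limma adjusted p of 0.954. The sign was not stable, since the 4 colon-profile arrays gave -0.10 and the other 2 arrays 0.46. A further Ppard probe set (1425703_at) lay between 2.39 and 2.46 on all arrays, under the filter. Whether the genotype difference of Ppara differs from that of Ppard was not tested.

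The retinoid X receptors, the shared partners of all PPARs, had small differences and overlapping groups over the 6 arrays. Rxra (1454773_at) read 8.82, 8.36 and 8.11 in control and 8.28, 8.09 and 8.61 in deficient samples. In each genotype the highest Rxra value came from the array with a small intestine profile. Its difference was -0.10 with a 95% interval of -0.73 to 0.52 and a limma adjusted p of 0.941. Rxrb (1416990_at) read 7.78, 7.99 and 8.16 in control and 7.91, 7.63 and 7.86 in deficient samples. The difference was -0.17, with an interval of -0.61 to 0.26 and a limma adjusted p of 0.827. On the 4 colon-profile arrays Rxrb differed by -0.30 with separated groups, between the other 2 by 0.08, and without control replicate 3 or deficient replicate 2 by -0.08 and -0.09. Rxrb spanned 0.53 log2 units over the 6 arrays, a range wider than that of only 17.5% of genes. The other Rxra probe sets (1425762_a_at and 1430497_at) lay under 2.8 on all arrays and were not tested, the second of them at the table's lowest value of 2.25 on every array.

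Ppargc1a encodes PGC-1 alpha, the coactivator that couples PPARs and estrogen-related receptors to mitochondrial and oxidative genes. Its leading probe set (1456395_at) read 6.98, 8.18 and 8.21 in control and 6.54, 5.23 and 5.86 in deficient samples. The lowest control value came from the small intestine-profile array and still lay 0.44 above the highest deficient value. The means were 7.79 ± 0.70 and 5.87 ± 0.66 (SD, n = 3 each), which differ by -1.92 with a 95% interval of -3.09 to -0.74, or 3.77-fold higher in control (1.67 to 8.54). The limma unadjusted p was 0.00746, smaller than for all but 0.887% of genes, and the adjusted p was 0.659. The difference was -2.31 on the 4 colon-profile arrays, -1.12 between the other 2, and ran from -2.32 to -1.59 when 1 array was left out.

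The remaining 4 Ppargc1a probe sets differed by -1.68 to -1.88. Of the 5 in all, 4 separated the groups, although 1434099_at did so by only 0.006 log2 units. The exception, 1437751_at, read 5.77, 6.69 and 6.91 in control and 5.84, 3.05 and 4.82 in deficient samples, where deficient replicate 1 lay just above control replicate 1. Deficient replicate 2 was lowest on all 5. Over all members, 7 of 17 kept probe sets separated downward, against 4.16% of the 17024 kept probe sets that name 1 gene, and all 7 belonged to Ppara or Ppargc1a. As many had a limma unadjusted p under 0.05, all of them lower, against 2.41%, and none of the 17 had an adjusted p under 0.05, against 0.00587%.

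Ppargc1b, the related coactivator PGC-1 beta, had a smaller difference. Its probe set (1449945_at) read 7.96, 9.31 and 9.48 in control and 9.02, 7.79 and 7.85 in deficient samples. Control replicate 1, with a small intestine profile, lay among the deficient samples, and deficient replicate 1 among the controls. The difference was -0.70 with a 95% interval of -2.02 to 0.62 and a limma adjusted p of 0.778, and it was -0.99 on the 4 colon-profile arrays and -0.11 between the other 2. Without deficient replicate 1 the Ppargc1b difference was -1.10, without control replicate 1 -1.18, without control replicate 2 -0.50, without control replicate 3 -0.42 and without deficient replicate 2 -0.49. Whether it differs from the Ppargc1a difference was not tested.

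Med1, the Mediator subunit that docks on ligand-bound receptors, was covered by 7 probe sets, of which 4 were kept. The leading one (1448708_at) read 8.53, 7.85 and 8.52 in control and 8.73, 8.39 and 8.74 in deficient samples. The groups overlapped, with a difference of 0.32, a 95% interval of -0.29 to 0.93 and a limma adjusted p of 0.778, and the difference was 0.10 without control replicate 2. The next probe set (1421907_at) differed in the other direction, by -0.17, with 7.92, 9.0 and 8.12 in control and 7.89, 8.27 and 8.38 in deficient samples. A further one (1447450_at) stood at 5.54 on 5 of the 6 arrays and 5.60 on the other, so it carried almost no variation although it passed the filter. The last kept one (1421906_at) differed by 0.12, and the other 3 lay under 2.9 on all arrays.

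**Figure D4:**
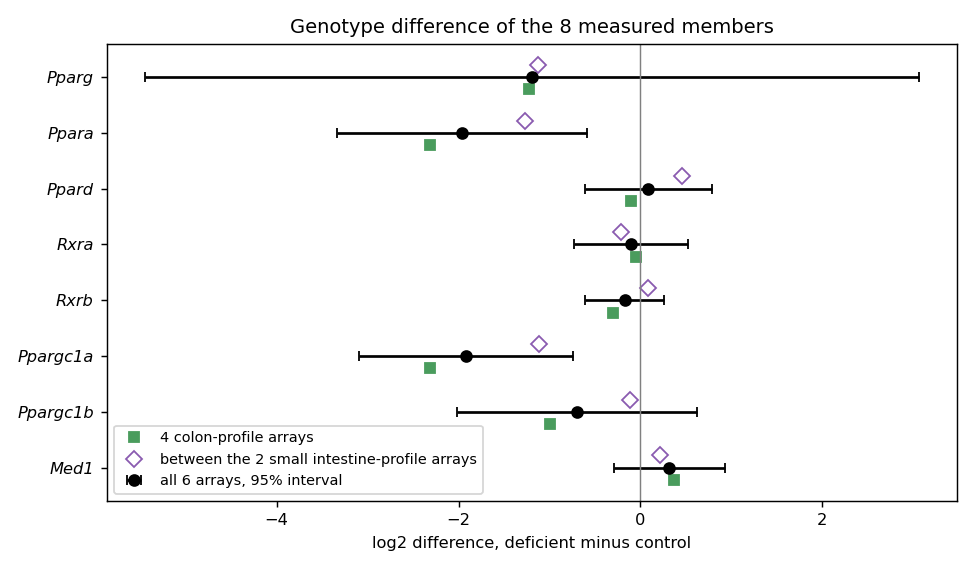
Log2 difference, deficient minus control, of the leading probe set of 8 members, over all 6 arrays with the 95% limma interval (black), on the 4 colon-profile arrays (green squares) and between the 2 small intestine-profile arrays (open diamonds). The intervals of Ppara and Ppargc1a lie below 0, that of Pparg runs from -5.45 to 3.06, and those of Ppard, Rxra, Rxrb and Med1 lie within 1 log2 unit of 0.

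On the 4 colon-profile arrays alone, no member and no gene had a limma adjusted p under 0.05 (0% of 10490 genes). Both deficient arrays lay below both control arrays for 5 of the 8 members, Pparg, Ppara, Rxrb, Ppargc1a and Ppargc1b, where 18.4% of all genes did so. A limma unadjusted p under 0.05 with a lower level was found for 3 of them, Pparg, Ppara and Ppargc1a, against 4.93% of genes. Adipocyte markers were lower, and macrophage and neutrophil markers higher, on the same deficient arrays, and colonocyte markers differed by genotype there. The part of all these markers in the Ppara and Ppargc1a values was not tested. Deficient replicate 2, lowest for Ppara and Ppargc1a, also had the lowest adipocyte mean (5.84) and the highest macrophage (8.76) and neutrophil (6.82) means.

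The other proteins that serve the receptors were followed as lists, with 0 genes past the threshold in each. Of 20 further coactivators 19 were measured, with 10 higher and 9 lower, 0 past the threshold and a median difference of 0.03 (0.05 to 0.18 when single arrays were left out), beside 0.06 over all genes. Prmt1, an arginine methyltransferase that acts on PGC-1 alpha and histones, read 8.74, 7.64 and 8.69 in control and 8.98, 9.73 and 9.28 in deficient samples, a difference of 0.98 (limma adjusted p 0.667), or 0.62 without control replicate 2. Cited2, a partner of the acetyltransferases CBP and p300, differed by -0.71, or by -0.41 without deficient replicate 2. Prmt1 and Cited2 were the only coactivators of the list whose groups separated. That is 1 of 19 upward and 1 of 19 downward, against 9.36% and 4.15% of all genes, so no more than the background. Ncoa4 differed by -0.31 with overlapping groups, or by -0.20 without deficient replicate 3. The corepressor list, with NCoR complex partners such as Hdac3 (0.17, and -0.02 without deficient replicate 2 or 0.33 without deficient replicate 3), had 8 of 12 measured members higher, 0 past the threshold, no separated groups and a median of 0.05 (0.0011 to 0.19 when single arrays were left out). Its smallest p belonged to Bcl6, a repressor of inflammatory genes, at 0.63, followed by the deacetylase Hdac2 at 0.29 and the receptor corepressor Nrip1 at -0.31. Hdac2 differed by 0.06 without control replicate 2 and 0.45 without control replicate 3, and Nrip1 by -0.02 without deficient replicate 2 and -0.51 without deficient replicate 3.

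The other subunits of Mediator, the complex that Med1 belongs to, were all measured (30 of 30), with 18 higher, 12 lower, 0 past the threshold and a median of 0.08, which was -0.04 without control replicate 2 and 0.17 without control replicate 1. The groups of 3 separated upward, or 3 of 30 against 9.36% of all genes, so this share was near the background. They were Med21 at 0.49, Med14 at 0.52 and Med10 at 0.31. Partner factors of PGC-1 had a median of 0.06 (-0.0021 to 0.17 when single arrays were left out) over 11 measured members of 13, with 0 past the threshold. Among them Tfam, the factor that packages and transcribes mitochondrial DNA, differed by 0.31, Esrra, an estrogen-related receptor, by -0.35 and the forkhead factor Foxo1 by -0.26. Without deficient replicate 2 Esrra differed by -0.08, without deficient replicate 3 by -0.62 and without control replicate 1 by -0.19, and Foxo1 by -0.40 without control replicate 2 and -0.16 without control replicate 3. Tfam was the only one of this list whose groups separated, or 1 of 11 upward against 9.36% of all genes, a share near the background. It read 9.24, 9.11 and 9.15 in control and 9.34, 9.36 and 9.72 in deficient samples, and differed by 0.19 without deficient replicate 3.

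Among other receptors that pair with RXR, 9 of 14 were measured, 6 of them lower, with 0 past the threshold and a median of -0.42. Thra, a thyroid hormone receptor, read 6.97, 7.82 and 7.42 in control and 6.64, 6.68 and 6.53 in deficient samples, a difference of -0.79. Vdr, the vitamin D receptor, read 10.14, 9.75 and 10.12 in control and 9.43, 8.39 and 9.48 in deficient samples, a difference of -0.91, or -0.55 without deficient replicate 2. For these 2 of 9 receptors the groups separated downward, against 4.15% of all genes, and both had a limma adjusted p of 0.659 or more. Nr4a2, an orphan receptor induced by acute stimuli, differed by 1.36 with overlapping groups, or by 0.58 without deficient replicate 2. The list median was -0.04 with no filter on low values, -0.79 with a filter at log2 6 and -0.20 without deficient replicate 2. Target genes of those other receptor pairs had a median of -0.35 over 9 measured members of 16, 4 higher and 5 lower, with 0 past the threshold. In that list the apolipoprotein Apoe differed by 0.85, the retinoic acid hydroxylase Cyp26b1 by -0.49 and the ubiquitin ligase Mylip by -0.54, each with overlapping groups. Apoe differed by 0.49 without control replicate 1, Cyp26b1 by -0.28 without deficient replicate 2 and Mylip by -0.20 without deficient replicate 3. Leaving out single arrays moved that median between -0.30 and -0.01.

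Genes that PPARs themselves control mostly had lower means in deficient samples. All 23 measured oxidation targets (of 31 listed) had a lower mean in deficient samples, where 43.0% of all genes did, with a median difference of -0.56 and 0 past the threshold. Groups separated downward for 6 of the 23, against 4.15% of genes. Acaa1b, a peroxisomal thiolase, read 6.36, 9.09 and 9.70 in control and 3.24, 2.25 and 3.59 in deficient samples. All deficient values lay under log2 4, near the array floor, and the difference was -5.36 (limma adjusted p 0.659). Acaa1b thus passed the filter through its control arrays alone. Its direction and separation follow from that filter and are no separate result, although it is counted among the 23 and the 6. Ehhadh, the peroxisomal bifunctional enzyme, read 8.65, 8.41 and 8.83 in control and 7.12, 6.01 and 7.55 in deficient samples, a difference of -1.74. Like Ppara it was lowest on deficient replicate 2. Acot2, a mitochondrial acyl-CoA thioesterase, differed by -0.93. The list median was -0.75 on the 4 colon-profile arrays and -0.17 between the other 2, and it was -0.32 without deficient replicate 2.

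Of the fat storage and handling targets 20 of 28 were measured, with 19 lower, 0 past the threshold and a median of -0.94. Groups separated downward for 9 of the 20, against 4.15% of genes. Pck1, which feeds glycerol into stored fat, read 8.77, 9.52 and 9.40 in control and 7.55, 5.16 and 5.92 in deficient samples, a difference of -3.02. Scd1, the stearoyl-CoA desaturase, differed by -2.44 and the fat cell hormone Adipoq by -1.74. The single member with a higher mean was Hilpda, an inhibitor of lipolysis, at 0.21 with overlapping groups, and from -0.50 to 1.14 when single arrays were left out. Adipoq, Cidec, Fabp4 and Retn of this list are also adipocyte markers, and the part that fewer fat cells may have in the list was not tested. The median was -1.05 on the 4 colon-profile arrays and -0.73 between the other 2.

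Carriers and sources of PPAR ligands had 10 of 12 measured members lower (of 16 listed), where 43% of all genes were lower. There were 0 past the threshold, and the median was -0.75, or -0.47 without deficient replicate 2. Fabp1, Fabp2 and Fabp6 of this list are also small intestine enterocyte markers, and Fabp4 and Lipe adipocyte markers. Fabp4 and Lpl are counted in the fat storage list as well. The part of tissue make-up in this list was not tested. Pnpla2, the lipase that releases fatty acids from fat droplets, read 8.94, 8.88 and 8.87 in control and 8.40, 8.17 and 8.46 in deficient samples, a difference of -0.55. Fabp4, the fatty acid binding protein of fat cells and macrophages, differed by -0.97 with separated groups. Fabp1, the liver and intestinal form, differed by -1.96 with overlapping groups, by -1.37 on the 4 colon-profile arrays, by -3.15 between the other 2 and by -1.31 without control replicate 1. The 2 members with a higher mean were Ptgs2, the inducible cyclooxygenase, at 3.64, and Fabp5, the epidermal form, at 1.02 with overlapping groups. The Ptgs2 groups separated by only 0.04, and without deficient replicate 2 the difference was 2.12. Fabp5 differed by 1.73 on the 4 colon-profile arrays and by -0.40 between the other 2, and by 0.19 without deficient replicate 2 and 1.89 without deficient replicate 3. The 9 lists were put together with earlier results of these data known, and their counts are descriptions.

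**Figure D5:**
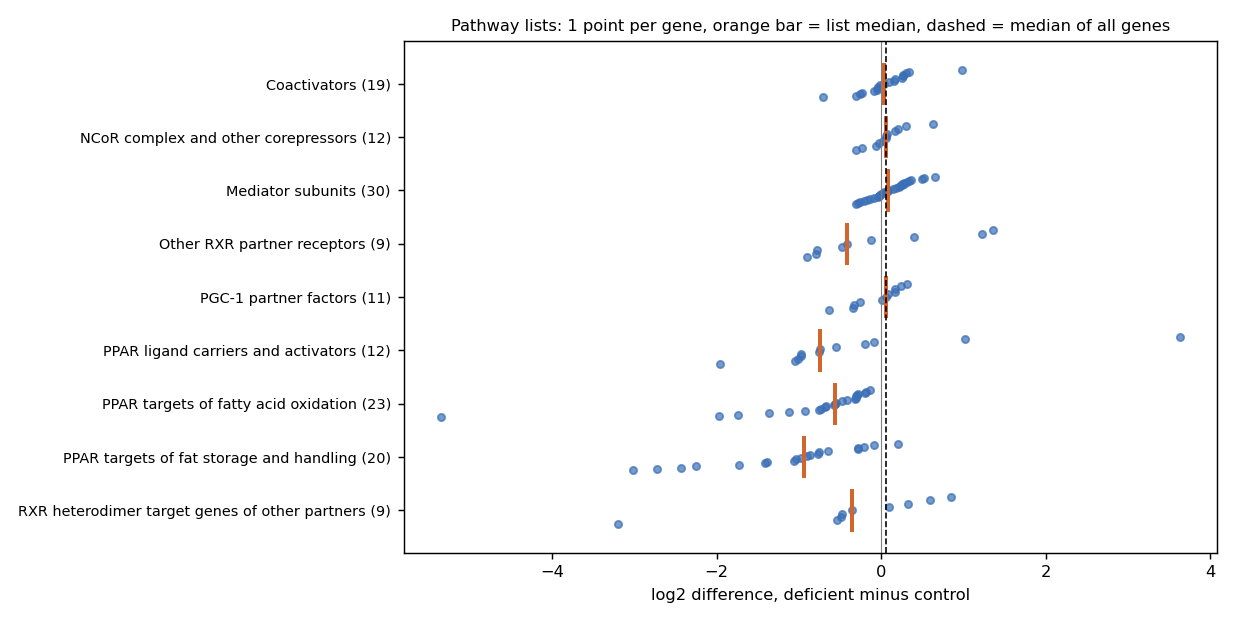
Log2 difference, deficient minus control, of every measured gene of 9 pathway lists (blue points, number measured in brackets), with the list median (orange bar) and the median of all 10490 genes (dashed line, 0.06). The medians of coactivators, corepressors, Mediator subunits and PGC-1 partner factors lie between 0.03 and 0.08, and those of the oxidation and fat storage targets at -0.56 and -0.94.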

How the data were processed

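Each deposited value is the log2 expression of 1 probe set on 1 array. Per the submitters' processing notes the authors used GCRMA, with version, settings and joint normalization not given in the sources used here. That the values are log2 follows from their range, and low genes share a floor, which compresses their differences. Of 45101 probe sets, 34945 named 1 gene, 932 several and 9211 none, and 13 Affymetrix controls that named 1 gene were left out. The Entrez identifiers of 34741 were in the GRCm38.p6 gene table.

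Probe sets above log2 4 on at least 3 arrays were kept (17024 naming 1 gene), and each gene took its probe set of highest mean, giving 10490 genes. The comparison of deficient and control samples used limma 3.58.1 under R 4.3.3 (lmFit, eBayes, two-sided, no covariate), with Benjamini-Hochberg adjustment over all genes and a threshold of 0.05. Probe sets were also fitted singly. The number of arrays limits the precision. The members, lists, tests and alternatives were chosen with earlier results of these data known; the count over genes with several probe sets was added later. The genes named by rule were all members, the 3 smallest p per list, Lyz2, and the 5 genes most like Pparg and Ppara by Pearson r. Hdac3, Hilpda, Ptgs2, Fabp5, Cidec, Retn, Lep, Cxcr2, Mpo, Elane and Xist were named after their values were seen. So were the single colonocyte, epithelial and lymphocyte markers. The sample titles do not say whether replicate numbers pair the samples, and the main fit used no pairing. The alternatives were other filters, normalizations, probe set rules, variance models, array weights, a floor, blocks and left-out arrays.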

Additional observations from a re-analysis of the deposited data

How the results depend on the processing

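No member was called in any of the 18 alternative settings, and Ppara, Rxrb, Ppargc1a, Ppargc1b and Med1 kept their direction in all of them. The adjusted p of Ppara ran from 0.144 to 0.985 and that of Ppargc1a from 0.10 to 0.985, both lowest with array weights. With array weights 2 genes were called, Bhmt2 and Pla2g5, against 0 otherwise; Ppard then differed by -0.0077 and Rxra by 0.046. On the 4 colon-profile arrays Ppard differed by -0.10, as did its probe set 1439797_at. When single arrays were left out the difference ran from -2.67 to 0.26 for Pparg, from -0.15 to 0.31 for Ppard and from -0.26 to 0.10 for Rxra, and the number of genes called stayed at 0. The cause of these sign changes was not tested. With a replicate block 0 genes were called and Ppara had a limma adjusted p of 0.893. The deviations of same-numbered samples correlated at -0.54, 0.36 and -0.61. The small intestine profile lay on control replicate 1 and deficient replicate 3, so these correlations cannot show whether the numbers pair the samples. Values under log2 4 are near the floor of the arrays, which limits Acaa1b and the lowest Ppara and Ppargc1a probe sets.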

Other observations

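The genes whose levels followed Ppara most closely over the 6 arrays were Camk1d, Sh3gl2, Tppp, Tmem98 and Mgat3, with Pearson r of 0.997, 0.992, 0.984, 0.984 and 0.983. Each was lower on average in deficient samples, with log2 differences of -1.10, -0.69, -2.45, -0.90 and -0.88, and limma adjusted p of 0.659 to 0.666. That direction follows from picking them by likeness to Ppara and is no separate result. Tppp, a tubulin polymerization promoting protein, read 8.11, 7.94 and 8.08 in control and 6.09, 4.17 and 6.54 in deficient samples. The correlations are descriptions over 6 arrays that also differ in genotype and tissue profile, and 171 genes had an r above 0.9 with Ppara.

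The genes most like Pparg were Nupr1, Abcc3, Fxyd1, Atp2a3 and Ddx6, with Pearson r of 0.993 or more over the 6 arrays, and 454 genes had an r above 0.9. As for Pparg, their lowest control and deficient values came from the 2 arrays with a small intestine profile, which follows from picking them by likeness to Pparg. Nupr1, a stress-induced nuclear protein, read 10.39, 13.85 and 13.36 in control and 12.80, 12.15 and 9.48 in deficient samples.

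Besides Ppara, the genes with at least 3 kept probe sets that all separated downward were Ank3, Atp2b1, Camk1d, Fmo2 and Hadh, named here after their values were seen. Fmo2, a flavin monooxygenase, did so on 4 probe sets with differences of -1.38 to -1.98, and Hadh, which catalyses the third step of mitochondrial beta-oxidation, on 3 with -0.61 to -0.98. A probe set named for Ppard together with 1810013A23Rik stood at 2.25 on 5 arrays and at 3.36 on control replicate 1.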
